A study of Homo sapiens with 6 samples.

Results

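Transcripts of the transcriptional cyclin-dependent kinases (CDKs) other than CDK9, together with their partner subunits, were examined in H9 cells upon CDK9 inhibition. The genes were taken by symbol from the count table and comprise 10 of the 61541 genes in it. They fall into the CDK7 module (CDK7, CCNH, MNAT1), the cyclin K kinases (CDK12, CDK13, CCNK), and CDK11 with the L-type cyclins (CDK11A, CDK11B, CCNL1, CCNL2). H9 is a cutaneous T-cell lymphoma (CTCL) line, labelled wild type, so that all libraries come from 1 established line. It was treated with the vehicle DMSO or with AZD4573, a selective CDK9 inhibitor, given for 4 h (the labels state the time for AZD4573 only), with 3 RNA-seq libraries per group. The labels number the libraries as replicates without saying whether they are separate cultures, so p-values measure the spread between these libraries.

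CDKs of this class act on RNA polymerase II (RNAP2), whose largest subunit carries a C-terminal domain of repeated heptapeptides. CDK7, with cyclin H and the assembly factor MAT1 (encoded by MNAT1), is the kinase of the general transcription factor TFIIH and also activates other CDKs by phosphorylating their activation loop, CDK9 among them. CDK12 and CDK13 pair with cyclin K and phosphorylate serine 2 of the heptapeptide during elongation. CDK12 with cyclin K is known to sustain the expression of long genes of the DNA damage response. CDK11, encoded by the neighbouring paralogs CDK11A and CDK11B, pairs with cyclins L1 and L2 and acts in pre-mRNA splicing, where the splicing factor SF3B1 is a known substrate.

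Promoter sequences of 4 genes are shown because they carry the largest fall (CDK7), the largest rise (CCNL2), and the duplication that limits how CDK11A and CDK11B can be counted. All 10 genes matched the RefSeq promoter table, which gives 300 bases per start site, 250 before it and 50 after it. Sequences are from RefSeq on GRCh38.p14, 5′ to 3′ on the strand of the gene, and where the table lists several start sites the one nearest to the gene start was used. Capitals mark the GC box GGGCGG, read on both strands, in CDK7 and CCNL2, and the ETS core GGAAGT, read on both strands, in CDK11A and CDK11B.
CDK7 (chr5:69234545-69234844, plus strand): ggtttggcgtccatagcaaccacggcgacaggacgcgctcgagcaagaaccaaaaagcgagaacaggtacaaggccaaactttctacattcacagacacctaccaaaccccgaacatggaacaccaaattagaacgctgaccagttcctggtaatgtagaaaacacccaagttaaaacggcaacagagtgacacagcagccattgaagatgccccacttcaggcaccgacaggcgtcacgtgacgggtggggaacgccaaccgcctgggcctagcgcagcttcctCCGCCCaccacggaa
CCNL2 (chr1:1399286-1399585, minus strand): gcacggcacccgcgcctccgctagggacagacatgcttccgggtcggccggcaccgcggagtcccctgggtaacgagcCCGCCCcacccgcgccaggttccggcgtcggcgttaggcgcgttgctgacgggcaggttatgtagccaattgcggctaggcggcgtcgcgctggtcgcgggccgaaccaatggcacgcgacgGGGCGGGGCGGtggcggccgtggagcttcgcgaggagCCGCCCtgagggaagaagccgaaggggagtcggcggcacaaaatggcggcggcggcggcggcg
CDK11A (chr1:1724308-1724607, minus strand): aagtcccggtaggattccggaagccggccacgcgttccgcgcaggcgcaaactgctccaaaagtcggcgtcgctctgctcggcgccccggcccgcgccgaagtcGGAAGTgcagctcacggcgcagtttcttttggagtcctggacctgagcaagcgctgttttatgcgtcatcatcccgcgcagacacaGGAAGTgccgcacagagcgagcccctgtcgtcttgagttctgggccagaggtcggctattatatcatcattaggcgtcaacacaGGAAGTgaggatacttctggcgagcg
CDK11B (chr1:1658955-1659254, minus strand): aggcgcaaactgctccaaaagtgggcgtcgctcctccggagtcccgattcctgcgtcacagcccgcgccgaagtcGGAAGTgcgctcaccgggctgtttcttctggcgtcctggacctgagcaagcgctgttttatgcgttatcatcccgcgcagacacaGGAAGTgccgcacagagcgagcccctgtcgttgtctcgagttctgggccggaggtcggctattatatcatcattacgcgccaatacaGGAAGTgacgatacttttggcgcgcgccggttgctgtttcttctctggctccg

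The CDK11A and CDK11B promoters are copies of each other, with 237 of 256 aligned bases identical (92.6%), and each holds 3 ETS cores, where 22.8% of 35116 promoters hold any. The CDK13 promoter was the only other of the 10 with an ETS core. The GC box occurs once in the CDK7 promoter and 4 times, with overlapping matches, in that of CCNL2. It is present in 6 of the 10 promoters and in 45% of all promoters. A TATA box (TATAAA, either strand) was found in 0 of the 10 promoters, against 11.5% of all promoters. GATA motifs (GATA after A or T and before A or G, either strand) lie in 3 of the 10 promoters, those of MNAT1, CDK12 and CDK11B, and in 25% of all promoters. These matches describe letters only. GC content ranged from 49% (CDK12) to 73.7% (CCNL2), where the median of all promoters was 58.7%.

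The 3 DMSO libraries held 70367303 to 76571157 counts in total and the 3 AZD4573 libraries 52101868 to 63795185. Levels are given as CPM (a gene's counts relative to the library total, with totals adjusted by edgeR's TMM method), and groups were compared by edgeR's quasi-likelihood test over the 17678 genes that passed a filter on low counts, with Benjamini-Hochberg adjustment over all of them. All 10 genes passed this filter, and the lowest count of any of them in a library was 335 (CDK7). A gene was called where the adjusted p was under 0.05 and the fold change reached 1.5, and log2FC stands for the log2 fold change of AZD4573 against DMSO, given with its standard error (SE). As shares of a library, these levels do not give RNA per cell, and fewer expressing cells cannot be told apart from less RNA in each. The share of the 13 mitochondrially encoded mRNAs was 3.13% ± 0.0929 in DMSO libraries and 4.85% ± 0.162 in AZD4573 libraries (SD, n = 3), and under a scaling to these mRNAs (the mitochondrial scaling) the median log2FC over all genes tested was -0.71 in place of 0.03. No gene lower at an adjusted p under 0.05 turned positive under it, whereas 3228 of the 6596 higher genes turned negative, so directions that flip are given below for genes named and as counts for lists. Levels of marker genes are CPM by library total alone. The T-cell markers CD3D, CD3E, CD3G, CD247, CD5, LCK and TRAC were expressed at means of at least 58.5 CPM in either group, whereas CD4 (3.96 and 6.73 CPM) and CD28 (6.06 and 4.19 CPM) were low and CD2 was nearly absent (at most 13 counts in a library). The 10 T-cell markers summed to between 1077 and 1098 CPM with DMSO and between 1235 and 1255 CPM with AZD4573. Of 18 markers of other cells, 12 were under 1 CPM in both group means. The others were EPCAM (161 CPM with DMSO, 130 CPM with AZD4573), CD79A (59.9 and 90.2 CPM), COL1A1 (6.55 and 3.77 CPM), CD79B (5.87 and 3.33 CPM), CDH1 (4.65 and 3.87 CPM) and MPO (no counts and 1.07 CPM). Summed, the B-cell markers were at 63.5 to 68.7 CPM with DMSO and 90.3 to 98.3 CPM with AZD4573, the epithelial ones at 160 to 177 and 131 to 138 CPM, the fibroblast ones at 5.13 to 7.80 and 3.46 to 4.26 CPM, and the myeloid ones at 0.274 to 0.512 and 1.10 to 2.03 CPM. The part of these markers in the results was not tested.

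Upon AZD4573 treatment the 10 genes divided by complex. All 3 transcripts of the CDK7 module and all 3 of the cyclin K kinases were lower, whereas of the CDK11 and cyclin L transcripts 3 of 4 were higher and CDK11A did not pass the threshold. By the fold rule, 4 of the 10 genes were called lower (CDK7, CCNH, CDK12, CDK13), beside 23.7% of all genes tested, and 1 was called higher (CCNL2), beside 22.7% of all. Without the fold threshold, an adjusted p under 0.05 was reached by 6 lower and 3 higher genes (37.4% and 37.3% of all genes tested). The AZD4573 libraries lay below all DMSO libraries for 6 genes and above them for 3, where 38.7% and 39.0% of all genes tested were separated in these ways. The median log2FC of the 10 genes was -0.37, beside 0.03 over all genes tested. With the mitochondrial scaling, 7 genes were called lower (53.4% of all genes) and 1 higher (10.0%), with MNAT1 (-1.08), CCNK (-1.13) and CDK11A (-0.60) added to the lower calls. CCNL1 and CDK11B also turned negative there but stayed under the fold threshold, while CCNL2 kept its direction. The 6 lower genes kept theirs as they must, since this scaling lowers all 10 genes by a like amount.

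**Figure D1:**
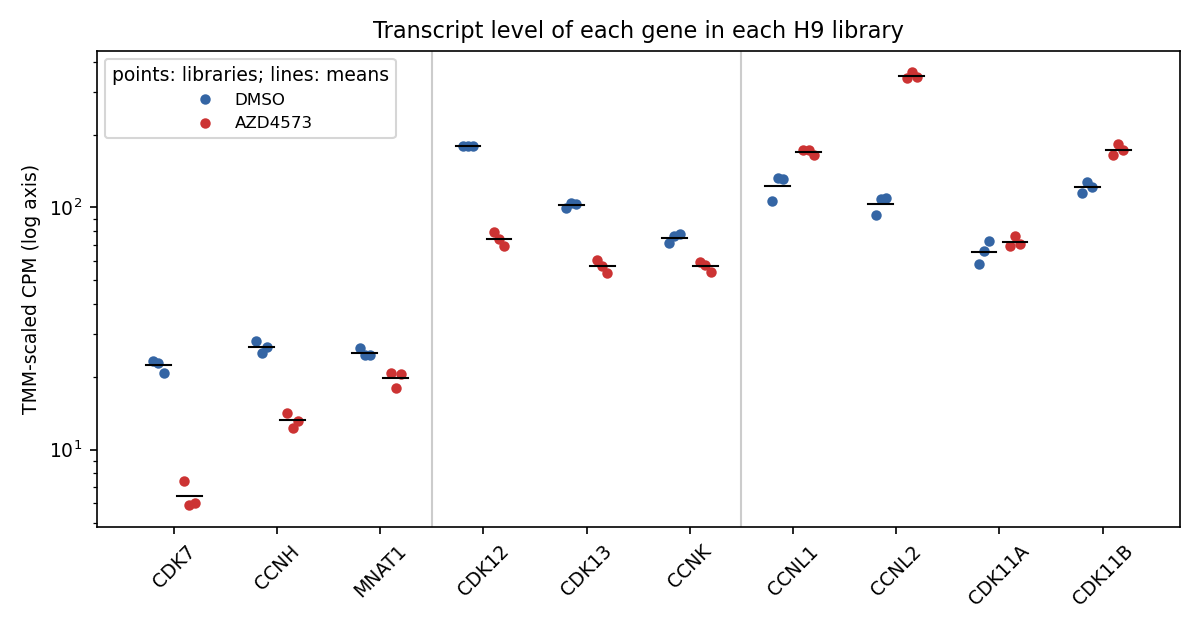
TMM-scaled CPM on a log axis for the 10 genes in each of 3 DMSO and 3 AZD4573 libraries, with points for libraries, short lines for group means and grey lines between complexes. The groups are apart for every gene except CDK11A, with AZD4573 below DMSO in the first 6 genes and above it in CCNL1, CCNL2 and CDK11B, of which CCNL1 and CDK11B reverse with the mitochondrial scaling.

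CDK7, the catalytic subunit of the TFIIH kinase, had the largest fall of the 10. Its transcripts were at 23.3, 22.7 and 20.8 CPM in the DMSO libraries and at 7.43, 5.88 and 6.0 CPM in the AZD4573 libraries. The groups lie far apart, and the mean with AZD4573 was 28.9% of that with DMSO (22.2 ± 1.3 and 6.43 ± 0.863 CPM, SD, n = 3). The log2FC was -1.79 (SE 0.0924, adjusted p = 1.2e-09, edgeR), and 4.10% of all genes tested had a lower one. CDK7 (ENSG00000134058) has 12 exons in its canonical transcript on chromosome 5 of GRCh38, from 69234795 to 69277430, and shares no exon base with another gene of GENCODE release 44. For 9179 other genes with a mean of at least 10 CPM, centred log2 CPM over the 6 libraries was compared with that of CDK7. The nearest were CHST12 (Euclidean distance 0.0714), THAP7 (0.0803) and RPF2 (0.0907), with log2FC values of -1.81, -1.74 and -1.80. Values near that of CDK7 follow from this choice by distance.

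CCNH encodes cyclin H, the regulatory subunit that CDK7 needs for activity. It was at 28.2, 25 and 26.6 CPM with DMSO and at 14.2, 12.3 and 13.1 CPM with AZD4573, so that every treated library lay below every control. Its log2FC was -1.01 (SE 0.0727, adjusted p = 2.7e-08, edgeR), or 49.6% of the DMSO mean. Of the 1280 bases of its canonical transcript, 253 lie opposite exons of RASA1 or of an antisense gene, which counting without strand cannot separate, and RASA1 itself had a log2FC of -0.87 (adjusted p = 4.2e-08, edgeR).

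MNAT1 encodes MAT1, which stabilises the CDK7 and cyclin H pair and anchors it to the TFIIH core. It was at 26.3, 24.7 and 24.5 CPM with DMSO and at 20.8, 18.0 and 20.6 CPM with AZD4573. The groups do not overlap, but the gap was the smallest of the module, with a log2FC of -0.35 (SE 0.0687, adjusted p = 4.5e-04, edgeR) that stays under the fold threshold. The gene spans 235.2 kb of chromosome 14, the longest span of the 10.

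The 3 transcripts of the module did not fall alike. Within a library, the ratio of CDK7 to MNAT1 counts was 0.884, 0.918 and 0.849 with DMSO and 0.358, 0.327 and 0.291 with AZD4573, a difference of -1.45 between the means of the log2 ratios. The ratio of CDK7 to CCNH went from 0.824, 0.905 and 0.781 to 0.522, 0.479 and 0.457, a log2 difference of -0.78. Such ratios within a library do not depend on the scaling between libraries. In all 8 ratios computed, the groups did not overlap, and the two-sided exact permutation test gave p = 0.1 for each (0.1 after Benjamini-Hochberg adjustment over the 8), the smallest value that 3 against 3 libraries allow, so that none can pass 0.05. The share of other gene pairs whose ratios separate in this way was not computed. Among single genes tested, 38.7% had each AZD4573 library below each DMSO library and 39.0% above.

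**Figure D2:**
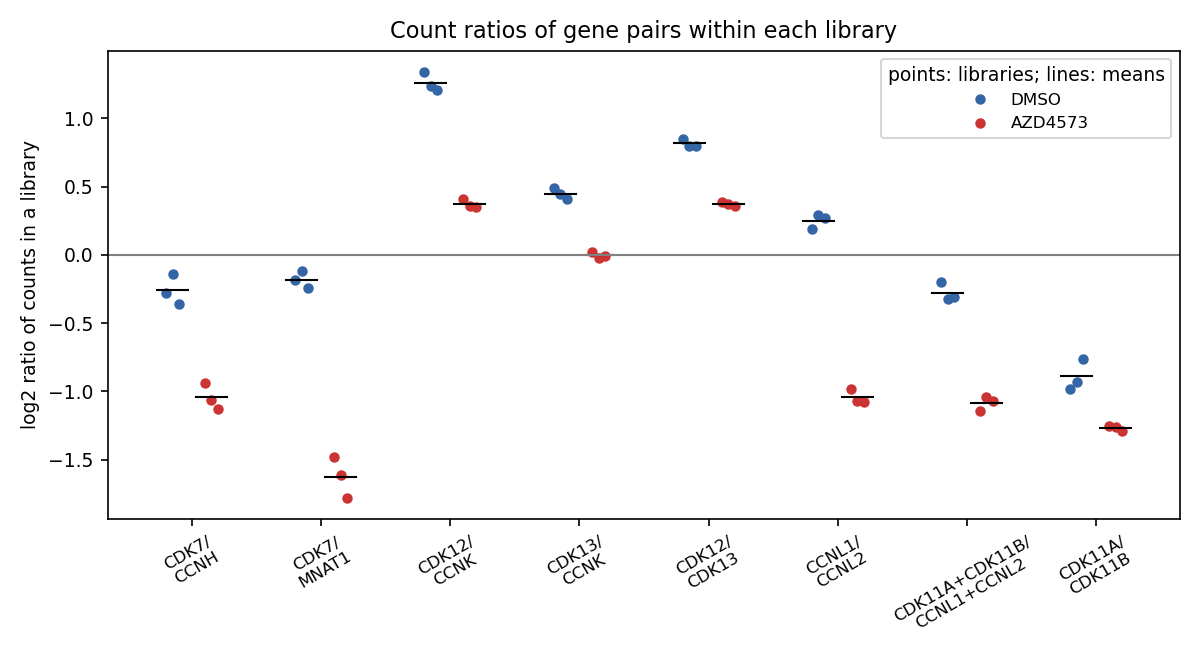
Log2 ratio of the counts of gene pairs within each library, for 3 DMSO and 3 AZD4573 libraries (points) with group means (lines). All 8 ratios were lower with AZD4573, with log2 differences from -1.45 (CDK7 to MNAT1) to -0.37 (CDK11A to CDK11B). The sign of each depends on which gene was taken as numerator.

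CDK12 encodes a kinase that works with cyclin K. It was at 180, 180 and 180 CPM in the DMSO libraries and at 78.9, 74.4 and 69.1 CPM in the AZD4573 libraries. The DMSO libraries were nearly equal (SD 0.196 CPM), and the mean with AZD4573 was 41.1% of theirs. Its log2FC of -1.28 (SE 0.050, adjusted p = 1.3e-10, edgeR) was second only to that of CDK7 among the falls of the 10. CDK12 lies on chromosome 17 from 39461486 to 39567559 and shares no exon base with another gene.

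CDK13, the paralog of CDK12, was at 99.7, 104 and 103 CPM with DMSO and at 60.4, 57.4 and 53.8 CPM with AZD4573. All treated libraries were below the controls, with a log2FC of -0.84 (SE 0.0507, adjusted p = 5.0e-09, edgeR). The canonical transcripts of CDK12 and CDK13 align with 66.6% identity and share 0 windows of 100 bases, so that their reads can be told apart. The ratio of CDK12 to CDK13 counts went from 1.81, 1.74 and 1.74 to 1.31, 1.3 and 1.28, a log2 difference of -0.44, and was lower in every treated library than in any control.

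CCNK encodes cyclin K, the shared partner of both kinases. It was at 71.3, 76.1 and 77.9 CPM with DMSO and at 59.4, 58.1 and 54.0 CPM with AZD4573. The groups do not overlap, and the log2FC of -0.39 (SE 0.0533, adjusted p = 1.5e-05, edgeR) is below the fold threshold. Both kinases fell relative to their cyclin, with log2 differences of -0.89 for CDK12 to CCNK and -0.45 for CDK13 to CCNK. Of the 3524 bases of the canonical CCNK transcript, 2990 lie opposite exons of CCDC85C, so that counting without strand may have moved reads between them. CCDC85C had between 2002 and 2387 counts with DMSO and between 929 and 974 with AZD4573 (log2FC -0.80, adjusted p = 3.9e-07, edgeR), and its part in the value of CCNK was not tested.

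Of the L-type cyclins and CDK11, only CCNL2 was higher under both scalings. CCNL2, which encodes cyclin L2, was at 92.8, 108 and 109 CPM with DMSO and at 342, 361 and 347 CPM with AZD4573. Every treated library was above the controls by a wide margin, at 339% of the DMSO mean, with a log2FC of 1.76 (SE 0.0590, adjusted p = 4.7e-11, edgeR). In all, 91.8% of the genes tested had a lower log2FC. With the mitochondrial scaling it was still higher, by 1.02 on the log2 scale (adjusted p = 1.5e-10, edgeR). CCNL2 lies on chromosome 1 from 1385711 to 1399335 and shares no exon base with another gene. Counts per gene do not separate its isoforms.

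CCNL1, which encodes cyclin L1, was at 106, 132 and 131 CPM with DMSO and at 173, 172 and 165 CPM with AZD4573. DMSO replicate 1 was the lowest library, and the treated libraries were all above the controls. The log2FC was 0.47 (SE 0.0711, adjusted p = 4.5e-05, edgeR), but -0.27 (adjusted p = 0.00415, edgeR) with the mitochondrial scaling. The ratio of CCNL1 to CCNL2 counts fell from 1.14, 1.22 and 1.20 to 0.506, 0.477 and 0.474, a log2 difference of -1.29. Per kilobase of canonical transcript, CCNL1 was the higher of the pair with DMSO (53.0 against 33.3 CPM per kb) and CCNL2 with AZD4573 (113 against 73.2 CPM per kb), but over all annotated exons CCNL2 was the higher already with DMSO (15.1 against 14.1 CPM per kb). Their canonical transcripts align with 67.8% identity and share 0 windows of 100 bases.

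CDK11B was at 115, 127 and 122 CPM with DMSO and at 164, 182 and 173 CPM with AZD4573. The treated libraries were all above the controls, with a log2FC of 0.51 (SE 0.0509, adjusted p = 6.7e-07, edgeR), which became -0.22 (adjusted p = 0.00203, edgeR) with the mitochondrial scaling. CDK11A was at 58.4, 66.2 and 72.4 CPM with DMSO and at 69.2, 76.4 and 70.9 CPM with AZD4573. Its groups overlap, and the log2FC of 0.14 (95% interval from -0.01 to 0.29, adjusted p = 0.0933, edgeR) did not pass the threshold, whereas without DMSO replicate 3, the highest control library, it was 0.20 (adjusted p = 0.0184, edgeR). With the mitochondrial scaling, CDK11A was lower, by a log2FC of -0.60 (adjusted p = 8.0e-07, edgeR).

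How counts divide between these paralogs is uncertain. The canonical CDK11A and CDK11B transcripts align over 2954 bases with 98.8% identity, and 49.3% of the 100-base windows of CDK11B also occur in CDK11A. RSEM divides reads that match both by an estimate. CDK11A also shares 2273 of the 2984 bases of its canonical transcript with a readthrough gene (ENSG00000268575), which had 265, 255 and 229 counts with DMSO and 407, 555 and 588 with AZD4573. Summed over CDK11A and CDK11B, the level was 173, 193 and 195 CPM with DMSO and 233, 259 and 244 CPM with AZD4573, a log2FC of 0.39 (SE 0.0535, adjusted p = 1.6e-05, edgeR). Against the summed cyclins L1 and L2, the summed CDK11 counts fell from ratios of 0.872, 0.802 and 0.809 to 0.453, 0.485 and 0.477, a log2 difference of -0.81.

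**Figure D3:**
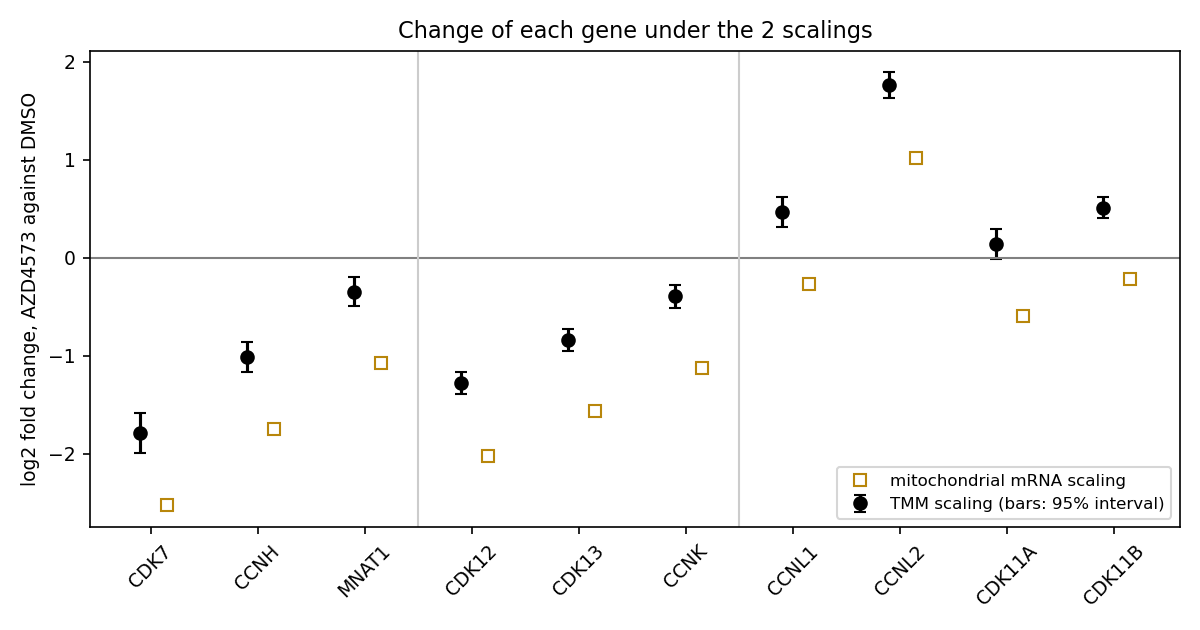
Log2FC of each gene, AZD4573 against DMSO, with TMM scaling (black points, bars for the 95% interval) and with the mitochondrial scaling (open squares). The change of scaling lowers every gene by a like amount, so that CCNL1, CDK11A and CDK11B cross 0 while CCNL2 stays at 1.02.

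Per kilobase of canonical transcript, CCNL1 had the highest level of the 10 with DMSO, at 53.0 ± 6.49 CPM per kb (SD, n = 3). It was followed by CDK11B (40.5 CPM per kb), CCNL2 (33.3), CDK11A (22.0), CDK12 (21.7), CCNK (21.3), CCNH (20.8), CDK7 (15.6), CDK13 (10.7) and MNAT1 (9.50). Neighbours from CDK11A to CCNH in this order overlap between libraries, and the other neighbours do not. With AZD4573, CCNL2 came first at 113 ± 3.19 CPM per kb and CDK7 last at 4.51 ± 0.605 CPM per kb, and no neighbours overlapped. The order depends on the length used: over all annotated exons, CDK11B was first with DMSO (34.8 CPM per kb) and CCNH last with AZD4573 (2.21 CPM per kb).

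The 4 genes of CDK11 and cyclin L also have the shortest genomic spans of the 10, from 13.6 kb (CCNL2) to 23.8 kb (CDK11B). The 6 genes lower at an adjusted p under 0.05 span from 42.6 kb (CDK7) to 235.2 kb (MNAT1). By the fold rule, only 4 of these 6 were called lower, and of the 4 short genes only CCNL2 was called higher. The part of span in this division was not tested. Among protein-coding genes tested, the fold rule called 27.5% lower with spans from 10 to 25 kb and 28.5% from 25 to 50 kb. The shares called lower were 30.6% from 50 to 100 kb and 22.7% above 100 kb. The shares called higher in the same classes were 18.4%, 16.3%, 13.4% and 19.0%. With spans up to 10 kb, 26.5% were called lower and 23.4% higher. Over these 13423 genes, which share the same 6 libraries, Spearman's correlation of span with log2FC was -0.03. CCNL2, CDK11B and CDK11A lie close together on chromosome 1. Of the 14 protein-coding genes tested from the start of CCNL2 to the end of CDK11A, 3 were called higher (CCNL2 among them) and 2 lower. Over all genes tested, 22.7% were called higher and 23.7% lower. The count in this region was made after the values were seen.

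Genes that work with these kinases were examined through 8 lists, each beside a median log2FC of 0.03 over all genes tested. CDK9 and its cyclins, CCNT1 and CCNT2, form P-TEFb, the target of AZD4573, and all 3 transcripts were called higher by the fold rule (22.7% of all genes tested), with log2FC values of 0.90, 1.19 and 0.85. Thus of the elongation kinases, CDK9 was higher while CDK12 and CDK13 were lower. With the mitochondrial scaling, the 3 P-TEFb values were 0.16 (adjusted p = 0.0223), 0.45 (adjusted p = 8.8e-06) and 0.11 (adjusted p = 0.138, edgeR).

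In the kinase module of Mediator, the coactivator that bridges transcription factors and RNAP2, 3 of 7 transcripts were lower and 3 higher (median 0.02). Here and in the lists below such counts are at an adjusted p under 0.05, which 37.4% of all genes tested reached as lower and 37.3% as higher. Of the 3 higher transcripts, 2 turned negative with the mitochondrial scaling. The paralogous kinases of this module differed in sign, with CDK8 at -1.43 (28.6 ± 0.628 to 10.6 ± 0.614 CPM, SD, n = 3) and CDK19 at 0.39, or -0.35 with the mitochondrial scaling. MED12L had the largest rise (0.83) from a mean of only 0.358 CPM. Of the 7 TFIIH core subunits, to which the CDK7 module docks, 2 were lower and 2 higher (median -0.06), from GTF2H2 at -1.19, whose near-identical copies make its count uncertain, to GTF2H3 at 0.56, which reversed to -0.18 with the mitochondrial scaling. The median of the CDK7 module itself was -1.01. Of the 4 cell cycle CDKs that CDK7 activates, 3 were lower and 1 higher (median -0.15), from CDK1 at -0.35 to CDK4 at 0.16, or -0.58 with the mitochondrial scaling, and none reached the fold threshold. Both higher TFIIH genes and the higher CDK turned negative under that scaling.

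POLR2A, the RNAP2 subunit that bears the C-terminal domain, went from 321 ± 31.9 to 127 ± 3.41 CPM (SD, n = 3), a log2FC of -1.34 (adjusted p = 5.0e-10, edgeR). Among the 8 genes of this substrate and its phosphatases, 3 were lower and 1 higher (median -0.11), the higher one being RPAP2, a serine 5 phosphatase, at 0.97. Of 12 genes of the DNA damage response known as targets of CDK12 with cyclin K, 8 were lower and 4 higher (median -0.30), and of the 4 higher genes ATR (0.30 to -0.44), FANCI (0.13 to -0.61) and FANCD2 (0.41 to -0.33) turned negative with the mitochondrial scaling. RAD51C, a factor of homologous recombination, had the largest fall (-0.83) and ATM, a damage-signalling kinase, the largest rise (0.98). By the fold rule, 3 of the 12 were called lower and 1 higher, beside 23.7% and 22.7% of all genes tested. With the mitochondrial scaling RPAP2 and ATM were both at 0.24, and the median of the 12 genes was -1.03.

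Of the 7 subunits of SF3b, the spliceosome complex with the CDK11 substrate SF3B1, 3 were lower and 2 higher (median -0.03), from SF3B3 at -0.48 to SF3B1 itself at 0.34, or -0.40 with the mitochondrial scaling, where both higher subunits turned negative. Of 6 kinases of SR proteins, a family of splicing factors, 2 were lower and 3 higher (median 0.14). CLK4 was the lowest at -0.89 and CLK2 the highest at 1.23, which was still positive at 0.49 with the mitochondrial scaling, while 1 of the 3 higher kinases, CLK1, turned negative (0.27 to -0.47).

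**Figure D4:**
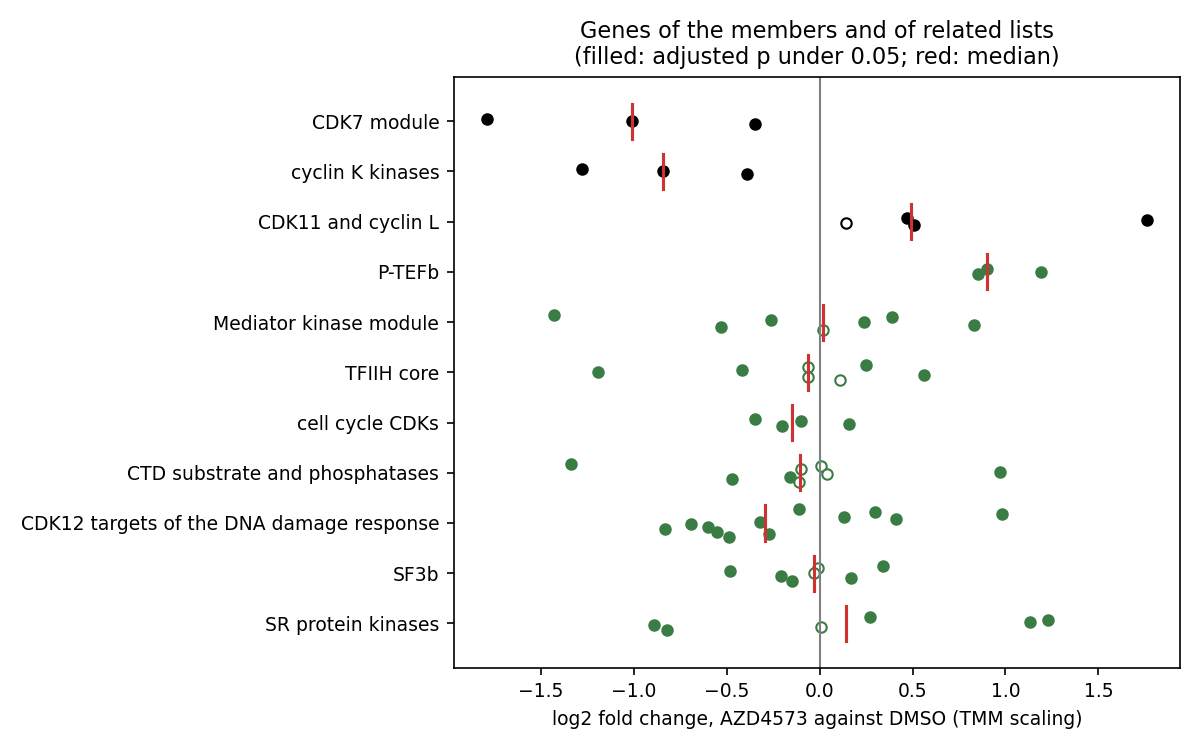
Log2FC (AZD4573 against DMSO, TMM scaling) of the 10 genes by complex (black) and of 8 related lists (green), with filled points for an adjusted p under 0.05 and red lines for medians. The CDK7 module and the cyclin K kinases lie wholly below 0 and P-TEFb wholly above it, while the other 7 lists hold genes on both sides, and some of their higher genes turn negative with the mitochondrial scaling.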

How the data were processed

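The data were bulk RNA-seq of H9 cells with 3 DMSO and 3 AZD4573 libraries, grouped by their labels. According to the supplemental methods and the submitters' processing notes, the authors trimmed reads with Cutadapt 2.3, aligned them to GRCh38 (STAR 2.7.8a) and obtained expected counts for each gene from RSEM 1.3.3 at default parameters, which ignore strand. The labels describe poly(A) selection and the supplemental methods rRNA depletion. The deposited values are whole numbers, not normalized. Of 61546 entries, 5 reporter sequences with 0 counts were left out.

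Counts were analysed in R 4.3.3 with edgeR 4.0.16 (minimum count 10, TMM, quasi-likelihood test, Benjamini-Hochberg adjustment, no replicate block). Standard errors were taken from the log2 fold change and its F statistic. The study's tool, DESeq2, was run as an alternative (1.42.0). Ratios were tested by exact permutation over libraries. Positions, lengths and transcripts came from GENCODE release 44. Errors are SD over libraries. A count of 0 would allow up to 0.0576 CPM in the smallest library, taken as 3 counts, for counting error only.

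The genes named were all 10 members, plus from each of the 8 lists the largest fall and rise past an adjusted p of 0.05 and a few fixed partners. ATR, FANCI, FANCD2, CLK1 and the markers of other cells above 1 CPM were named after their values were seen. Members and lists were chosen with earlier results of these data known. Alternatives were other scalings, other filters, each library left out, a replicate block, DESeq2, other fold thresholds, summed CDK11 counts and, for ratios, a pseudocount of 10. The procedure was tested on simulated data with 200 changed genes among 17678, of which 200 were recovered at an adjusted p under 0.05, with 13 false calls. Far fewer genes changed there than in these data, so it does not cover the choice of scaling. No library was a copy of another, since chi-square values per degree of freedom between libraries of a group were 5.61 to 21.3. Values of some marker genes are not reported here.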

Additional observations from a re-analysis of the deposited data

How the results depend on the processing

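Of 138 log2 fold changes of the 10 genes under alternatives, 133 had the same direction and stayed on the same side of an adjusted p of 0.05. This comparison left out the fold threshold. With the libraries scaled to mitochondrially encoded mRNAs, CCNL1 (-0.27), CDK11A (-0.60) and CDK11B (-0.22) reversed, and 7 genes were called lower in place of 4, which follows the shift of all genes. CDK11A passed an adjusted p of 0.05 with at least 10 counts in every library (0.17, adjusted p = 0.0351, edgeR). With 1 library omitted at a time, its log2FC ranged from 0.05 to 0.20. In these fits its adjusted p was under 0.05 only without DMSO replicate 3. Over all alternatives its adjusted p ranged from 8.0e-07 to 0.720. The cause was not tested. Without a fold threshold, 3 genes were higher in place of 1, which is a looser rule by construction. All 56 alternative values of the 8 ratios moved by less than the larger SD of the groups. Where 1 library was left out this holds by arithmetic, and says nothing of stability. With a pseudocount of 10, the log2 difference of CDK7 to MNAT1 was -1.42 in place of -1.45. With each library left out in turn, 4 genes were called lower and 1 higher in every fit.

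The labels do not say whether same-numbered libraries are paired. Their deviations from the mean of the group had correlations of -0.0103, 0.133 and 0.0183, and not every library correlated best with its own number. Weak correlations cannot exclude a pairing. With the number as a block, 4 of the 10 genes were lower and 1 higher, and no call among them changed. Over all genes the block gave 4162 lower and 3926 higher, against 4191 and 4012 without it.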
